A study of Mus musculus with 6 samples.

Results

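This account covers the genes of the HCN channels and of TRIP8b, the auxiliary subunit encoded by Pex5l, in RNA bound to tagged ribosomes of mouse cortex. The rule took every probe set that names exactly 1 gene in the platform annotation and whose symbol is Hcn2, Hcn3, Hcn4 or Pex5l, which gave 6 of the 45037 probe sets that are not controls. They belong to 3 of the 4 genes, with 1 for Hcn2, 1 for Hcn3 and 4 for Pex5l. No probe set in the annotation used names Hcn4 alone, so Hcn4 is not analysed here. Of the 6, 5 had a mean intensity of at least 50 in at least 1 group, the limit proposed in the series text, and are called measured below.

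The samples came from cortex of untreated bacTRAP mice, in which a bacterial artificial chromosome carrying the control regions of a driver gene puts a tagged ribosomal protein into the cells that use that gene. Tagged ribosomes were purified with their messengers, and each sample was amplified from 15 ng of RNA and read on 1 array. There were 3 biological replicates of the S100a10 line (ES691) and 3 of the Glt25d2 line (DU9), both backcrossed to C57BL/6 from FVB, and the study set the lines against each other as cortical pyramidal cells. Each driver is represented by 1 transgenic line, the S100a10 transgene also marks some cells that are not neurons according to the series text, and the labels used here give neither the age nor the sex of the mice nor whether animals were pooled.

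Hyperpolarization-activated cyclic nucleotide-gated (HCN) channels open when the membrane becomes more negative and carry the inward current known as Ih. In layer 5 pyramidal neurons this current is concentrated in the distal apical dendrite, where it lowers the input resistance and shortens synaptic potentials. HCN2 and HCN4 respond strongly to cyclic AMP and HCN3 weakly, and TRIP8b binds the C-terminal part of the channels, governs how many of them reach the surface and dendrite, and reduces their response to cyclic AMP. Pex5l messengers are spliced into several forms whose proteins act on channel trafficking in different ways.

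As deposited, both channel genes rose in S100a10 cells, about 2-fold each, whereas the Pex5l probe set with the highest mean did not pass the test. A further Pex5l probe set rose nearly 3-fold. The calls for the channel genes rested on the scale of the deposited values. The median gene was itself higher by a log2 value of 0.56 in S100a10 arrays, and neither channel gene passed after the arrays had been put on a common scale. Every difference below is on the log2 scale, S100a10 minus Glt25d2, and each adjusted p comes from limma fitted across the 21291 measured probe sets.

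Hcn2 encodes a channel subunit found widely in cortex and thalamus. Its probe set 1421154_at had intensities of 338, 371 and 421 in the S100a10 arrays, against 188, 173 and 173 in the Glt25d2 arrays. The groups did not overlap, and the values of Glt25d2 replicates 2 and 3 were identical to every digit deposited, so the spread of that group may be understated. The mean was 377 ± 41.4 in S100a10 cells and 178 ± 8.93 in Glt25d2 cells (SD, n = 3 each), which differed by 1.08 (SE 0.12, limma adjusted p = 0.000916). The fold was 2.11, with a 95% interval of 1.72 to 2.59. After quantile normalization the difference was 0.33 (limma adjusted p = 0.134) and after centring each array on its median 0.37 (limma adjusted p = 0.0851). Hcn2 did not pass in either fit.

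Hcn3 encodes a subunit with little response to cyclic AMP. Its probe set 1451023_at had intensities of 98.9, 152 and 121 in the S100a10 arrays, against 63.8, 61.2 and 38.6 in the Glt25d2 arrays. The groups did not overlap, and Glt25d2 replicate 3 lay under 50. The mean was 124 ± 26.7 in S100a10 cells and 54.5 ± 13.9 in Glt25d2 cells (SD, n = 3 each), which differed by 1.20 (SE 0.26, limma adjusted p = 0.0120). The fold was 2.30, with a 95% interval of 1.47 to 3.58. The Glt25d2 level was thus close to the limit, and with values under 50 set to 50 the difference was 1.08. It was 0.97 (limma adjusted p = 0.00494) without Glt25d2 replicate 3. It was 0.25 (limma adjusted p = 0.417) after quantile normalization and 0.50 (limma adjusted p = 0.149) after centring, and Hcn3 did not pass in either fit.

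The 4 Pex5l probe sets did not give 1 answer. The brightest over all arrays, 1438399_at, had intensities of 790.0, 572 and 752 in the S100a10 arrays, against 584, 482 and 868 in the Glt25d2 arrays. The groups overlapped, and the highest of the 6 values belonged to Glt25d2 replicate 3. The mean was 705 ± 116 in S100a10 cells and 645 ± 199.9 in Glt25d2 cells (SD, n = 3 each). The difference of 0.16 (SE 0.26, limma adjusted p = 0.629) did not pass, and its 95% interval ran from -0.47 to 0.79, or from 0.721-fold to 1.73-fold.

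Probe set 1451062_a_at of Pex5l had intensities of 262, 207 and 264 in the S100a10 arrays, against 254, 169.7 and 289.8 in the Glt25d2 arrays. The groups overlapped throughout. The difference was 0.066 (SE 0.23, limma adjusted p = 0.827), with a 95% interval of -0.51 to 0.64. The signs of both probe sets turned negative after rescaling, at -0.41 and -0.69 after quantile normalization and -0.55 and -0.64 after centring, without passing. The median gene itself lay at -0.036 and -0.14 in these fits.

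Probe set 1458932_at of Pex5l had intensities of 376, 317 and 472 in the S100a10 arrays, against 120.1, 110.4 and 167 in the Glt25d2 arrays. Every S100a10 array lay above every Glt25d2 array. The mean was 388 ± 78.1 in S100a10 cells and 132 ± 30.1 in Glt25d2 cells (SD, n = 3 each), which differed by 1.56 (SE 0.22, limma adjusted p = 0.00250). The fold was 2.94, and its 95% interval ran from 2.01 to 4.30. This probe set kept a difference of 0.79 after quantile normalization (limma adjusted p = 0.0630) and of 0.85 after centring (limma adjusted p = 0.0378). With Glt25d2 replicate 3 left out it passed on every scale tried, at 1.73 as deposited, 0.999 after quantile normalization and 1.08 after centring. The remaining probe set, 1446144_at, lay between 3.73 and 3.87 in the S100a10 arrays and at 4.37 in every Glt25d2 array, under 50 throughout, and no fold is given for it.

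**Figure D1:**
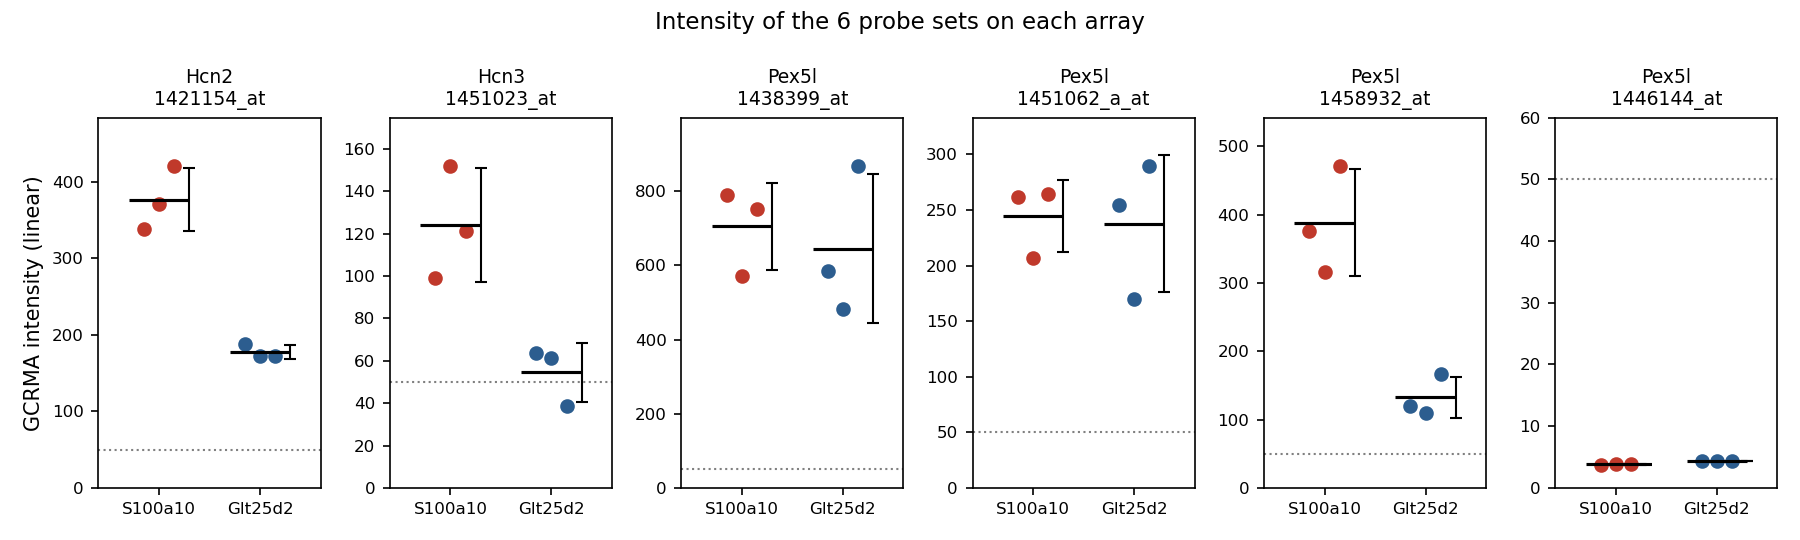
GCRMA intensity on a linear axis for each of the 6 probe sets, with 1 point for each array, S100a10 in red and Glt25d2 in blue; horizontal lines are group means, error bars are SD (n = 3), and the dotted line is the limit of 50. The groups are separate for Hcn2, Hcn3 and Pex5l 1458932_at and overlap for Pex5l 1438399_at and 1451062_a_at.

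Counted by gene, with a gene represented by its measured probe set of highest mean, 2 of the 3 measured genes rose (Hcn2 and Hcn3) and 0 fell by limma, and the counts at an unadjusted p under 0.05 were the same, 2 and 0. Of all 11821 genes tested 44.4% were called higher in S100a10 cells and 4.5% lower, so the members' count is not set apart from that of all genes. Among probe sets, 3 of the 5 measured rose, against 44.2% of all measured probe sets, and for the same 3 every S100a10 array exceeded every Glt25d2 array, as it did for 55.1% of all measured probe sets. A difference larger than that of Hcn2 was found for 26.8% of genes, and one larger than that of Hcn3 for 23.1%. A difference larger than that of Pex5l 1438399_at was found for 72.2% of genes, which places it below the median gene. Relative to the median gene, Hcn2 lay at 0.52, Hcn3 at 0.64 and the Pex5l probe sets at -0.40 (1438399_at), -0.49 (1451062_a_at) and 0.996 (1458932_at). Without Glt25d2 replicate 3 the 2 negative placements were weaker, at -0.12 (1438399_at) and -0.29 (1451062_a_at). The others were then 0.54 for Hcn2, 0.45 for Hcn3 and 1.22 for Pex5l 1458932_at.

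**Figure D2:**
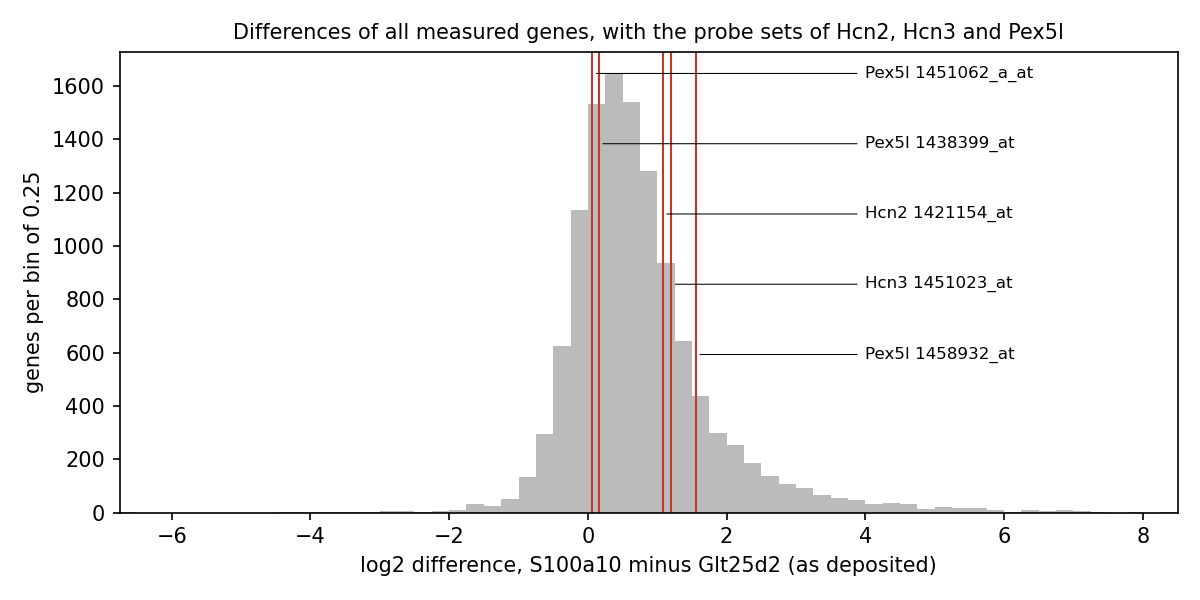
Histogram of the log2 difference of S100a10 minus Glt25d2 as deposited for the 11821 measured genes, in bins of 0.25, with red lines at the 5 measured probe sets of Hcn2, Hcn3 and Pex5l. The peak of all genes lies above 0, near the median of 0.56, with the channel genes to its right and Pex5l 1438399_at and 1451062_a_at to its left.

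The scale of the arrays differs between the groups, which bears on each of these values. The median intensity of all probe sets was 35.5, 35.6 and 35.8 in the S100a10 arrays, against 21.3, 21.1 and 20.4 in the Glt25d2 arrays. Calls across probe sets numbered 9405 higher and 934 lower in S100a10 cells as deposited, 3167 and 4189 after quantile normalization, and 3456 and 5131 after centring. The median gene lay at -0.036 after quantile normalization and at -0.14 after centring, so the centred scale kept an offset below 0. After quantile normalization 16.8% of genes were called higher and 18.4% lower, and after centring 16.9% and 25.1%, with 0 of the 3 measured member genes among them in either fit. At an unadjusted p under 0.05 no member gene was higher after quantile normalization and 1, Hcn2, after centring. Counted by member probe set at that threshold, 1 was higher and 1 lower after quantile normalization, and 2 and 1 after centring. The lower one in either fit was Pex5l 1451062_a_at, which does not stand for its gene in the count. The distributions of sorted log2 values lay 0.019 to 0.11 apart (root mean square) between arrays of the same group and 0.52 to 0.63 apart between arrays of different groups. The sources used here do not say whether the groups were normalized together, and if they were normalized separately, each fold on the deposited scale would hold that step as well. Whether the larger values in S100a10 arrays come from the cells or from the scaling of the arrays cannot be told apart with these files. In bulk RNA of this kind, fewer cells that use a gene and less RNA in each of them cannot be told apart either.

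**Figure D3:**
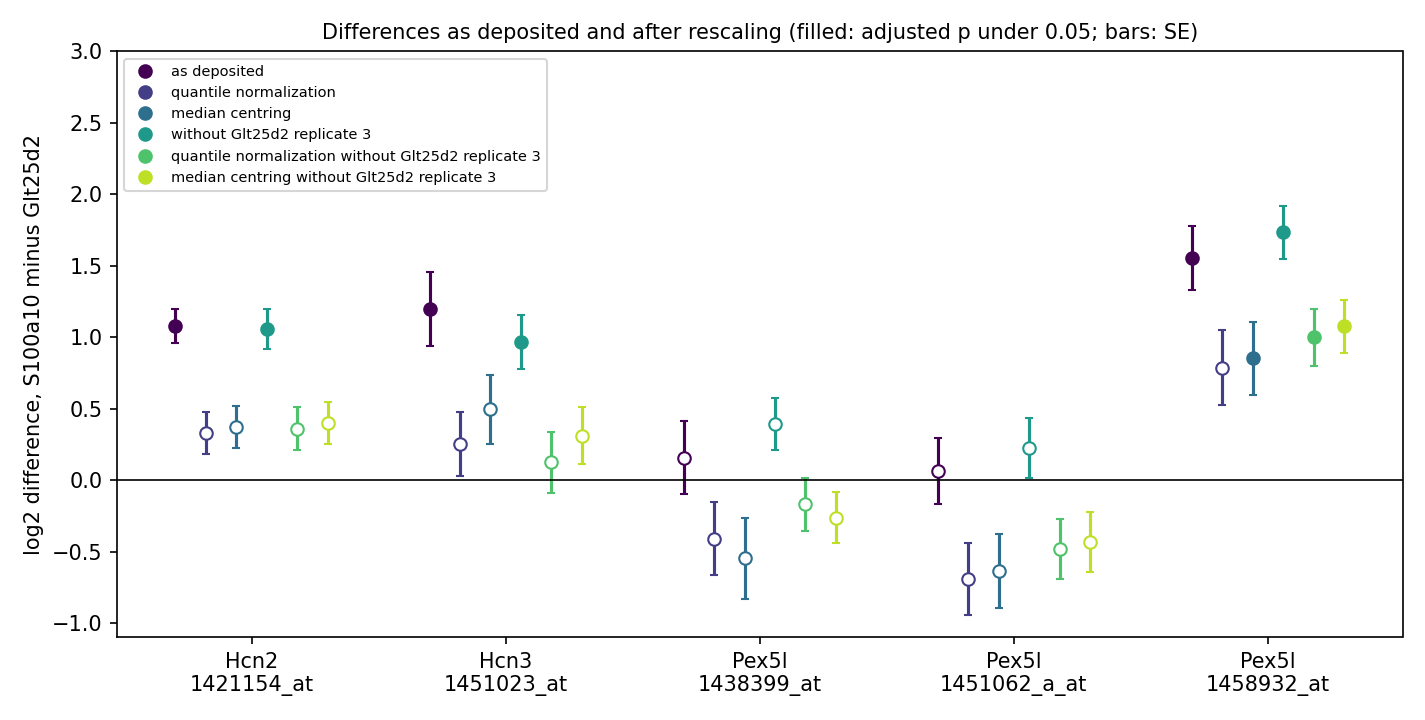
Log2 difference of S100a10 minus Glt25d2 (points, with SE bars) for the 5 measured probe sets as deposited and under 5 other treatments of the arrays; filled points have a limma adjusted p under 0.05. Hcn2 and Hcn3 are filled only for the deposited scale, with or without Glt25d2 replicate 3, whereas Pex5l 1458932_at is open only after quantile normalization of all 6 arrays.

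A ratio between probe sets of the same array does not depend on that array's overall scale, although it can depend on how a scaling treats bright and dim values. All 10 pairs of the 5 measured probe sets were therefore compared by their log2 ratio within each array. Only the difference of a ratio between the groups is read, not the ratio itself, since probes bind with different strength. With 3 arrays against 3, the smallest 2-sided p of the exact permutation test is 0.1, and adjusted over the 10 pairs the lowest value was 0.2, so no pair could pass. The pairs share probe sets and are not independent. How many pairs drawn from all measured probe sets would separate the groups was not computed. Of single genes, 63.8% had groups that did not overlap as deposited.

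Within Pex5l, the ratio of 1438399_at to 1458932_at was 1.07, 0.85 and 0.67 in the S100a10 arrays, against 2.28, 2.13 and 2.38 in the Glt25d2 arrays. The groups did not overlap and differed by -1.40 (exact permutation p = 0.1, adjusted p = 0.2). The ratio of 1451062_a_at to 1458932_at differed likewise, by -1.49 (exact permutation p = 0.1). By contrast the ratio of 1438399_at to 1451062_a_at differed by 0.092, within overlapping groups (exact permutation p = 0.6). Without Glt25d2 replicate 3 these differences were -1.34, -1.51 and 0.17. The sources used here do not say which Pex5l messengers each probe set detects.

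The ratio of Hcn2 to Pex5l 1438399_at was -1.22, -0.63 and -0.84 in the S100a10 arrays, against -1.63, -1.48 and -2.33 in the Glt25d2 arrays, a difference of 0.92 without overlap (exact permutation p = 0.1, adjusted p = 0.2). Against Pex5l 1451062_a_at the ratio of Hcn2 differed by 1.01 and that of Hcn3 by 1.13, both without overlap (exact permutation p = 0.1 each). The ratio of Hcn3 to 1438399_at differed by 1.04 with overlapping groups (exact permutation p = 0.2). Against 1458932_at the ratios of Hcn2 and Hcn3 differed by -0.48 and -0.36, with overlap (exact permutation p = 0.2 and 0.6). The ratio of Hcn2 to Hcn3 differed by -0.12 (exact permutation p = 0.8), and its values overlapped between the groups. Several of these differences turned on Glt25d2 replicate 3. Without it Hcn3 differed by 0.57 against 1438399_at, 0.74 against 1451062_a_at and -0.77 against 1458932_at, Hcn2 by 0.66, 0.83 and -0.68 against the same probe sets, and the ratio of Hcn2 to Hcn3 changed sign, to 0.089.

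**Figure D4:**
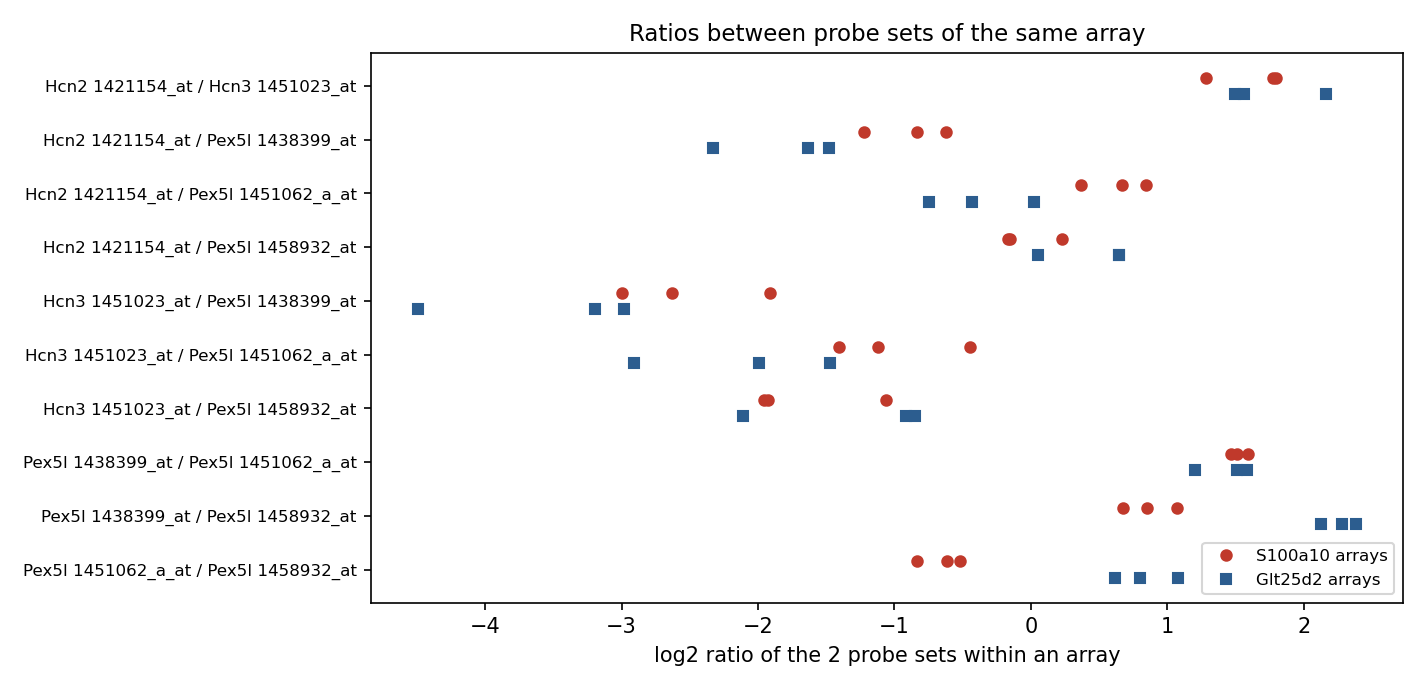
Log2 ratio of 2 probe sets within an array for the 10 pairs of the 5 measured probe sets; red circles are S100a10 arrays and blue squares Glt25d2 arrays. The groups are separate in 5 of the 10 pairs, each of them a pair that holds Pex5l 1438399_at or 1451062_a_at. The share of separate pairs over all measured probe sets was not computed.

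Glt25d2 replicate 3 stood apart from the other arrays of its group, and the members were not alike in it. Against the mean of its group's other arrays, 996 genes were more than 4-fold lower in it, whereas 0 were in replicate 1 and 0 in replicate 2. Relative to the mean log2 of the other Glt25d2 arrays, Hcn3 lay at -0.70 and Hcn2 at -0.062 there. The Pex5l probe sets lay above, at 0.71 (1438399_at), 0.48 (1451062_a_at) and 0.53 (1458932_at). A higher deviation than that of Pex5l 1438399_at was seen in 5.68% of genes. Without the array, the difference of Pex5l 1438399_at was 0.39 (limma adjusted p = 0.100), still not passing.

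The labels were checked against the driver genes and against cell type markers. S100a10 was higher in S100a10 arrays by 2.25 and Colgalt2, the present name of Glt25d2, was lower by a difference of -6.51. Of 7 measured markers of layer 5 subcerebral neurons, the cells in which Ih is best known, 6 fell in S100a10 cells and 1 did not pass, and at least 6 of the 7 were lower on each scale tried. Their summed intensity was 47183 to 49306 in S100a10 arrays, against 59399 to 65966 in Glt25d2 arrays. Among the 6, Diaph3 and Lratd2 had S100a10 means under 50 and were kept only through the Glt25d2 arrays, where they were high. Of 5 measured markers of cortical excitatory neurons 2 rose and 3 did not pass, and of 8 interneuron markers 3 rose and 1 fell. Of 7 measured markers of mural cells and fibroblasts 6 rose and 1 fell, with a sum of 7276 to 9253 in S100a10 arrays, against 695 to 877 in Glt25d2 arrays. Among the 6, Col1a2, Lum, Myl9 and Pdgfrb had Glt25d2 means under 50 and were kept only through the S100a10 arrays, where they were high. Of 8 pan-neuronal markers 2 rose and 1 fell, with a sum of 104868 to 107006 in S100a10 arrays, against 89702 to 93216 in Glt25d2 arrays. These sums are on the deposited scale, on which 44.4% of all genes were called higher and 4.5% lower. After quantile normalization 1 pan-neuronal marker was higher and 3 lower (16.8% and 18.4% of all genes). After centring 1 was higher and 4 lower (16.9% and 25.1% of all genes). The excitatory neuron markers gave 2 higher and 1 lower after quantile normalization, and 1 and 1 after centring.

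Markers of glia and endothelium also moved, in both directions. Of 8 astrocyte markers 2 rose (Gjb6 by 6.26 and Aldh1l1 by 2.23) and 2 fell (Aldoc and Gfap), or 4 and 3 without Glt25d2 replicate 3, and their sum was 19776 to 25481 in S100a10 arrays, against 9722 to 19583 in Glt25d2 arrays. Of 7 measured oligodendrocyte markers 1 rose (Olig2) and 2 fell (Ermn and Mbp), or 1 and 4 without that array, with a sum of 9269 to 15773 in S100a10 arrays, against 17779 to 24022 in Glt25d2 arrays. After either rescaling 4 oligodendrocyte markers were lower and Olig2 did not pass. Of 6 microglial markers 4 were measured and 1 rose, Tmem119, which was at least 3.99-fold higher, at 205 ± 59.0 in S100a10 cells against 4.17 in every Glt25d2 array (SD, n = 3), while Itgam and P2ry12 had means under 50 in both groups. The microglial sum was 504 to 798 in S100a10 arrays, against 292 to 470.4 in Glt25d2 arrays. Of 6 endothelial markers 3 were measured. Eng rose by 0.79, Esam fell (difference of -0.97) and Cldn5, at 50.3 ± 7.04 in S100a10 cells and 228 ± 177 in Glt25d2 cells (SD, n = 3 each), did not pass. Cldn5 was, however, called lower after quantile normalization (-3.03, limma adjusted p = 0.0182) and after centring (-2.42, limma adjusted p = 0.0396). The difference of Eng was -0.048 with quantile-normalized arrays and 0.084 with centred ones, neither passing. In either rescaled fit 2 of the 3 were thus lower and 0 higher, and without Glt25d2 replicate 3 the deposited values gave 2 lower and 1 higher. Pecam1, Tek and Flt1 had means under 50 in both groups. The endothelial sum was 320 to 343 in S100a10 arrays, against 281 to 702 in Glt25d2 arrays, and overlapped. Olig2 and Tmem119 had Glt25d2 means under 50, and Gfap had an S100a10 mean under 50. Each was kept only through the group in which it was higher. The rise of Hcn2, Hcn3 and Pex5l 1458932_at thus stood beside shifts in the markers of several cell classes, and the part of any of them in it was not tested.

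Genes of proteins that bind or regulate HCN channels were next examined. Of 12 such genes with a probe set, 9 were measured, 3 rose and 0 fell by limma, or 4 and 0 at an unadjusted p under 0.05, and over all genes 44.4% were called higher and 4.5% lower. Their median difference was 0.38, against 0.56 over all genes. Flna, which encodes filamin A, an actin crosslinker that binds HCN channels, had an intensity at least 5.57-fold higher in S100a10 cells, with a mean of 280 ± 32.4 against 13.8 in every Glt25d2 array (SD, n = 3). Mrvi1, now named Irag1, encodes a membrane protein of the endoplasmic reticulum that is known to regulate the gating of HCN4, and was at least 15.98-fold higher, at 802 ± 79.8 in S100a10 cells against 48.8 ± 0.811 in Glt25d2 cells (SD, n = 3 each). Cav1, the caveolin of membrane rafts, rose by 1.40 (SE 0.20, limma adjusted p = 0.00241). These 3 genes are also known from vascular and connective tissue cells. Of the 7 measured mural cell and fibroblast markers above, 6 rose and 1, Rgs5, fell (difference of -0.88). Whether such cells had a part in the rise of Flna, Mrvi1 and Cav1 was not tested. Each of the 3 stayed past the threshold in every alternative that kept it. However, Flna and Mrvi1 had Glt25d2 means under 50 and were kept only through the S100a10 arrays, where they were high. The alternative that asked both group means to reach 50 thus left these genes out. The bounds for Flna and Mrvi1, taken against 50, hold for the deposited scale. The other 6, among them the ubiquitin ligase gene Nedd4l at -0.097 and the tether genes Vapa at 0.12 and Vapb at 0.44, lay between -0.17 and 0.44 and did not pass. Without Glt25d2 replicate 3, the array that stands apart, 6 of the 9 rose and 0 fell by limma, against 55.1% and 6.13% of all genes. Apba2, at 0.98 (limma adjusted p = 0.00653), Nedd4, at 0.55 (limma adjusted p = 0.0472), and Vapb, at 0.49 (limma adjusted p = 0.0343), were the additions, and the list's median went from 0.18 below that of all genes to 0.035 above it. After centring 3 of the 9 were lower in S100a10 cells and 3 higher, against 25.1% and 16.9% of all genes. Kcne2, Cav3 and Lrmp had means under 50 in both groups.

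TRIP8b takes part in the uptake of channels through clathrin and its adaptor AP2, and was first described as a partner of the small GTPase Rab8b. Of 9 such genes, all measured, 3 rose and 0 fell by limma, or 4 and 0 at an unadjusted p under 0.05, with a median difference of 0.25. Against the 44.4% of all genes called higher, this count does not set the list apart. The adaptor subunit Ap2a1 rose by 0.92 (SE 0.10, limma adjusted p = 0.000930), with 3 identical values in the Glt25d2 arrays. The clathrin light chains Cltb and Clta rose by 0.51 (SE 0.13, limma adjusted p = 0.0190) and 0.37 (SE 0.090, limma adjusted p = 0.0180). None of the 3 passed after quantile normalization. There 0 of the 9 were higher and 1 was lower at an adjusted or unadjusted p under 0.05. Over all genes the shares at the adjusted p were 16.8% and 18.4%. After centring 0 were higher and 4 lower by limma (16.9% and 25.1% of all genes). At an unadjusted p under 0.05 the counts after centring were 0 and 7, with no share of all genes computed at that threshold. Clta also did not pass without Glt25d2 replicate 2. Cltb did not pass without S100a10 replicate 1 or 3 or without Glt25d2 replicate 1 or 2. Rab8b, at -0.52 (SE 0.25, limma adjusted p = 0.137), did not pass.

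Pex5l is related to Pex5, the receptor that brings enzymes with a C-terminal signal into peroxisomes, so peroxin genes were set beside it. Of 13 with a probe set 12 were measured, 7 rose and 0 fell by limma, with the same counts at an unadjusted p under 0.05 and a median difference of 0.53, beside 0.56 and 44.4% called higher over all genes. Pex16, which acts in the insertion of peroxisomal membrane proteins, rose by 1.40 (SE 0.18, limma adjusted p = 0.00173) and stayed past the threshold in every alternative. Pex11a, of peroxisome division, rose by 0.95, Pex26, the anchor of the export complex, by 0.87, and the docking protein gene Pex14 by 0.84. Without Glt25d2 replicate 3, 9 of the 12 were higher and 0 lower by limma, against 55.1% and 6.13% of all genes. After quantile normalization 2 of the 12 were higher and 1 lower (16.8% and 18.4% of all genes), and after centring 1 and 1 (16.9% and 25.1% of all genes). Pex11a, Pex26 and Pex14 passed in neither rescaled fit. Pex14 also did not pass when any 1 of the S100a10 arrays, or Glt25d2 replicate 2, was left out. Pex5 itself differed by 0.22 (SE 0.28, limma adjusted p = 0.538), without passing, and was named after its value was seen.

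The cyclic nucleotide-gated channels are relatives of the HCN family known from sensory cells. All 5 of these genes with a probe set (Cnga1, Cnga2, Cnga4, Cngb1 and Cngb3) had means under 50 in both groups, and the highest value on any array was 32.4, for Cnga4 in an S100a10 array. None was tested.

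**Figure D5:**
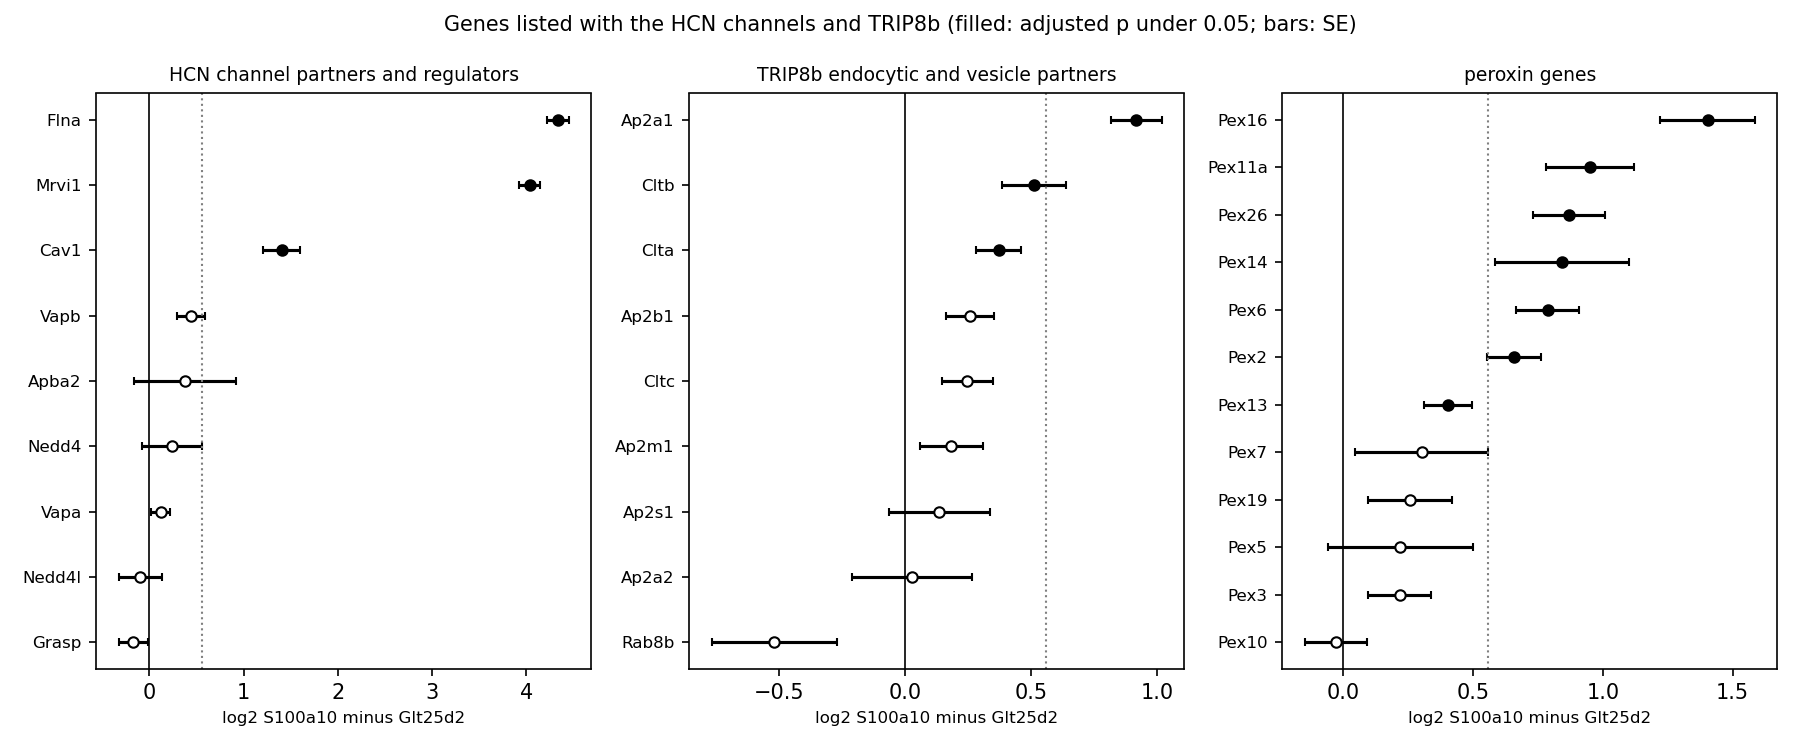
Log2 difference of S100a10 minus Glt25d2 as deposited (points, with SE bars) for the measured genes of 3 lists, HCN channel partners and regulators, endocytic and vesicle partners of TRIP8b, and peroxins; filled points have a limma adjusted p under 0.05, the solid line is 0 and the dotted line is the median of all genes at 0.56. Each panel has its own horizontal scale, and Flna and Mrvi1 lie above 4 in the first.

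The genes with the most similar profiles over the 6 arrays were found by the root mean square difference of log2 values, each gene centred on its own mean, among 11820 other genes. Nearest to Hcn2 were Thap7 at 0.043, Aldh3b2 at 0.046 and 1700110K17Rik at 0.049, and nearest to Hcn3 were Sema4g at 0.063, Caskin1 at 0.078 and Evc2 at 0.086. Nearest to Pex5l, by 1438399_at, were Atp23 at 0.055, Setmar at 0.064 and Ypel1 at 0.065. Such profiles were common, since 1540 genes lay within 0.25 of Hcn2, 1465 of Pex5l and 223 of Hcn3. The members were not close to each other by this measure. Hcn3 was at 0.28 from Hcn2, with a rank of 1941 of 11820, and Pex5l was at 0.56 from Hcn2 and at 0.77 from Hcn3.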

How the data were processed

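RNA from tagged ribosomes was read on 6 arrays. The authors' deposited values are intensity values, not logarithms, made with GCRMA as named in the submitters' processing notes, with no version given in the sources used here. GCRMA corrects background by probe base composition, so values near 50 are less certain than bright ones. Of 45101 rows 64 were controls; of the rest, 34945 name 1 gene, 932 several and 9160 none. The series text calls replicates averaged, but the 6 columns are separate.

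Log2 intensities were used as they are. A probe set was kept where either group's mean reached 50, which left 21291. The contrast S100a10 minus Glt25d2 was tested by limma 3.58.1 (R 4.3.3; lmFit, eBayes, 2-sided tests, Benjamini-Hochberg over all kept probe sets, threshold 0.05) with no block. A gene's kept probe set of highest mean log2 stands for it. Shares of all genes or probe sets called are at the adjusted p, and none was computed at an unadjusted p. If all arrays of 1 group were below 50, a bound against 50 replaces the fold. Identical values in at least 2 arrays of a group occurred in 0.207% of kept probe sets for S100a10 and in 23.4% for Glt25d2. Tested on simulated data for this comparison (21291 probe sets, 50 altered at each size), limma called 3 at 1.5-fold, 23 at 2-fold, 37 at 4-fold and 42 at 8-fold, and 10 unaltered ones. These counts hold for the simulated data alone. The deposited values have an offset between the groups, identical values and an array that stands apart. No rate of false calls was computed for the deposited values. The number of arrays limits the precision.

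The alternatives were: no filter; both group means reaching 50; log2 after adding 16; a floor of 50; quantile normalization or median centring over the kept probe sets, also without Glt25d2 replicate 3; a trended prior; a block for the replicate number; fitting 1 probe set for each gene; and each array left out. Members and gene lists were chosen with earlier results of these data known. The text names all members, the drivers, the 3 nearest profiles of each gene, and from each list at most 4 genes past the threshold (largest differences first) plus those a small count rests on; any other gene was named after its values were seen. Plots used matplotlib 3.10.9 with numpy 2.4.6 and pandas 2.3.3 in Python 3.11.15.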

Additional observations from a re-analysis of the deposited data

How the results depend on the processing

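Hcn2 and Hcn3 kept their direction under all 17 alternatives and passed in 13 of them. The 4 in which they did not pass were the rescaled fits. For Hcn2 the differences were 0.33 after quantile normalization and 0.37 after median centring, or 0.36 and 0.40 with Glt25d2 replicate 3 left out as well. For Hcn3 they were 0.25 and 0.50, or 0.12 and 0.31. The count of member genes higher in S100a10 cells was 0 in each of these 4 fits against 2 as reported, and the count lower was 0 under every alternative by limma. At an unadjusted p under 0.05 no member gene was lower on any of these scales, and 1, Hcn2, was higher after centring with or without that array. By probe set, Pex5l 1451062_a_at was lower at that threshold in both rescaled fits of all arrays. With Glt25d2 replicate 3 left out as well, 0 member probe sets were lower. Pex5l 1438399_at passed under none and took a negative sign after quantile normalization (-0.41) and centring (-0.55), or -0.17 and -0.26 with Glt25d2 replicate 3 left out as well, and ranged from -0.029 (without Glt25d2 replicate 2) to 0.39 with single arrays left out. Pex5l 1451062_a_at did so too, at -0.69 and -0.64, or -0.48 and -0.43, and from -0.16 to 0.23 with single arrays left out. Pex5l 1458932_at passed in 15 of 16, and not after quantile normalization of all arrays. Among list genes, Cltb was -0.19 after centring and -0.063 with Glt25d2 replicate 3 left out as well, Clta -0.33 and -0.29, and Pex14 -0.055 in the last of these fits. The median gene itself lay at -0.14 after centring, with or without that array. The within-array ratio of Hcn2 to Hcn3 differed by -0.12 and by 0.089 without Glt25d2 replicate 3, an alternative chosen after seeing the data, under which the other 9 ratios kept their sign. The cause of these changes was not tested.

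Probe sets called higher and lower, 9405 and 934 as reported, numbered 19640 and 5131 without a filter, 3167 and 4189 after quantile normalization, 3456 and 5131 after centring, 4201 and 5008, and 4724 and 6626, in the same fits with Glt25d2 replicate 3 left out, and 5285 and 542 genes when 1 probe set for each gene was fitted. With single arrays left out, 617 to 1278 were lower, with 617 both without S100a10 replicate 3 and without Glt25d2 replicate 2. Replicate numbers do not pair the arrays: deviations of arrays with the same number correlated at -0.45, 0.22 and -0.24. With the replicate number as a block, Hcn2 had an adjusted p of 0.0131, Hcn3 of 0.0307 and Pex5l of 0.522 by limma, and 558 probe sets were lower. The block ended the calls of Cltb (limma adjusted p = 0.0502), Clta (0.0892) and Pex14 (0.0773) and of no other gene named from the lists by the rule.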
